A study of Mus musculus with 3 samples.

Results

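The genes described here are 9 markers of the endothelium, the cell layer that lines blood vessels, and Notch4, a Notch receptor gene of the same cells. They were chosen by symbol from a table of 39179 genes: Vwf, Eng, Emcn, Pecam1, Cdh5, Kdr, Flt1, Tek, Tie1 and Notch4. All 10 were found, each in a single row, and all 10 passed the filter on low counts that left 17587 genes for testing. The data are raw read counts from RNA immunoprecipitations of white fat, in which an antibody pulls a protein out of a lysate with the RNA attached to it. Every library came from 16-week-old C57BL/6 mice that carried a Flag-FTO transgene and were fasted overnight. FTO removes methyl groups from adenosines in RNA. The 2 Flag-IP libraries used an anti-Flag M2 monoclonal antibody against the tagged FTO, and the IgG-IP library used a nonspecific IgG and gives the RNA that came down without the tag being bound. No source used here says which promoter drives the transgene or whether the libraries came from separate animals. The p-values therefore measure only the spread between the 2 Flag-IP libraries, which may be technical. That spread was pooled over genes, so a gene's own gap between its Flag-IP libraries did not set its p-value. There is no library of input RNA or from mice without the transgene among those analysed here.

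Endothelial cells sense growth factors through receptor tyrosine kinases. Vascular endothelial growth factors (VEGF) bind Kdr and Flt1, and angiopoietins bind Tek, which pairs with the orphan receptor Tie1. Notch receptors are cut after binding a ligand on a neighbouring cell, and the freed fragment enters the nucleus. In fat, the capillary endothelium also passes fatty acids to adipocytes, and VEGF signals adjust the vessels to the size of the depot.

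A DNA or RNA sequence can be read by its share of G and C bases (GC content), and the 10 transcripts differed widely in it. FTO acts on N6-methyladenosine, which is often found at adenosines inside the letters GGAC. The stretches below show the coding bases with the most GGAC, in 90-base windows, for the genes at either end of the comparison with IgG-IP. They are given in the sense direction, 5′ to 3′, with GGAC in capitals, from the GENCODE M21 transcripts of GRCm38.
Notch4, coding bases 5048 to 5137: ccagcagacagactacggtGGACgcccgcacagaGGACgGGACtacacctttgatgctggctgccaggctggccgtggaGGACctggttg
Eng, coding bases 678 to 767: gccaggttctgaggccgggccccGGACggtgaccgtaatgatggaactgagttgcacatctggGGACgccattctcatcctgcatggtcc
Tek, coding bases 313 to 402: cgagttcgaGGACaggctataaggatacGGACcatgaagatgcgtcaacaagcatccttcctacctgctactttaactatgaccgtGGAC
Emcn, coding bases 20 to 109: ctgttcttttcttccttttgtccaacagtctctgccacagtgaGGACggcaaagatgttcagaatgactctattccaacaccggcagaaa
The letters GGAC were searched on the sense strand alone, since the molecule is RNA, and copies of GGAC cannot overlap each other. The window of Notch4 held 4 copies at a GC content of 64.4%, that of Eng 2 at 61.1%, that of Tek 3 at 48.9% and that of Emcn 1 at 45.6%. These windows were chosen from coding sequences of unlike length, 5892 bases in Notch4 and 783 in Emcn. The coding sequence was also divided into adjoining windows of 90 bases. Of these, 34 of 65 (52.3%) held GGAC in Notch4 and 9 of 21 (42.9%) in Eng. In Tek 15 of 37 (40.5%) did, and in Emcn 1 of 8 (12.5%). Among 376608 such windows in 21226 protein-coding genes the share was 34.6%. A match describes letters only, and methylation was not measured.

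The libraries held 98227791 (Flag-IP 1), 95824218 (Flag-IP 2) and 74176962 (IgG-IP) counts, but 28 genes took 97.6%, 97.6% and 97.0% of them. The endothelial genes together had 750, 896 and 768 counts in these libraries, and the median tested gene had 24, 26 and 25. After scaling by TMM factors, which use the bulk of genes, the summed level was 808 and 887 normalized counts in Flag-IP and 723 in IgG-IP. As CPM of all counts the order was the opposite, with 7.64 and 9.35 in Flag-IP and 10.3 in IgG-IP (CPM is the count over the library total, scaled up). Of all genes tested, 981 (5.58%) were called higher and 1015 (5.77%) lower in Flag-IP, a call being a Benjamini-Hochberg adjusted p under 0.05 in the quasi-likelihood test of edgeR. With scaling to total counts, log2 fold changes shifted by a median of -0.52, and the calls were 342 higher and 3008 lower.

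The comparison asked which endothelial transcripts came down with tagged FTO above the IgG background. Notch4 was higher in Flag-IP, about 3-fold, and was the single endothelial gene of the 10 to pass the test. None was called lower by edgeR, and 1, Emcn, was lower at an unadjusted p under 0.05. DESeq2 called none of the 2 genes to which it gave an adjusted p. The other 9 genes ranged between a log2 fold change of 0.92 for Eng, a co-receptor of the TGF-beta family, and -0.62 for Emcn, a sialomucin of capillaries and veins. With 1 call in 10, against 5.58% called higher over all genes, the share of calls was not a result about the group. Both Flag-IP libraries lay above the IgG-IP library for 7 of the 10 genes and both below it for 2, against 40.5% and 39% of all genes tested. The median log2 fold change was 0.34, against 0.03 over all genes tested. It was -0.17 with scaling to total counts and 0.08 with a trend on GC content removed.

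**Figure D1:**
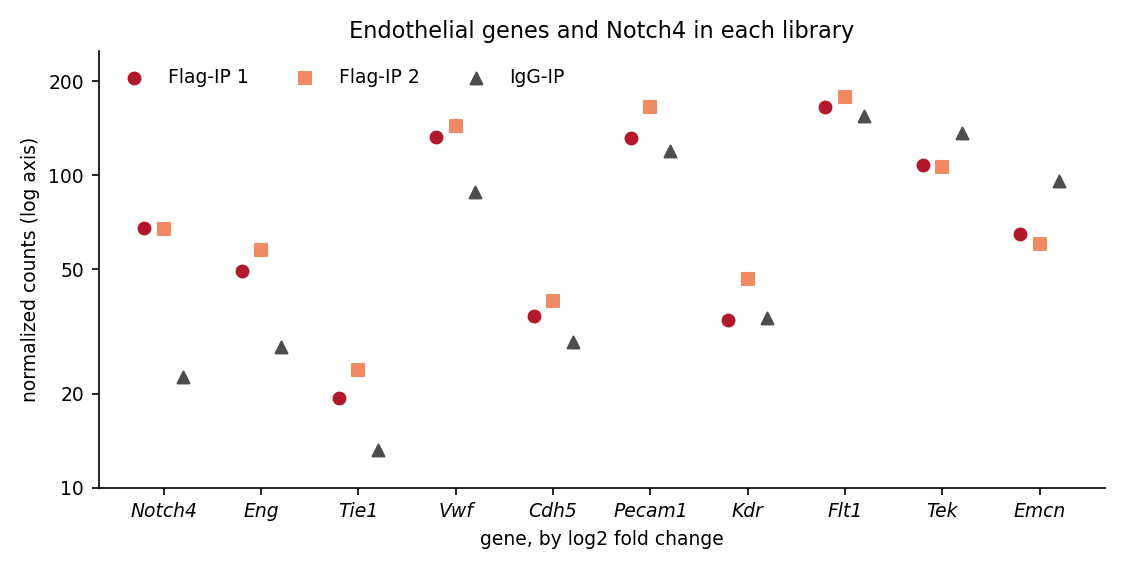
Normalized counts (log axis) of each gene in every library, Flag-IP in red and orange and IgG-IP in grey, with genes in order of their log2 fold change and 1 point a library. Notch4 stands at 67.8 and 67.3 in Flag-IP against 22.6 in IgG-IP, while Tek and Emcn at the right have the IgG-IP point on top.

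Notch4 encodes a Notch receptor found mostly in endothelium, and lies on chromosome 17, 34564268 to 34588503, in GRCm38. It had 63 and 68 counts in Flag-IP and 24 in IgG-IP, or 67.8 and 67.3 normalized counts against 22.6. Both Flag-IP libraries were high and nearly equal, and the IgG-IP library lay well under them. This was a log2 fold change of 1.57 ± 0.41 (SE, edgeR adjusted p = 0.00306). From the counts alone the pooled fold was 2.99, with a 95% interval of 1.92 to 4.83 (exact binomial, counting error only). The call was lost when the trend on transcript GC was removed (log2 fold change 0.73 ± 0.41, SE, edgeR adjusted p = 0.389) and under scaling to total counts (1.06 ± 0.45, SE, edgeR adjusted p = 0.0816). DESeq2 gave 1.57 ± 0.70 (SE), an unadjusted p = 0.0253 and no adjusted p. A pseudogene inside Notch4, Gm20462, had 3 and 0 counts in Flag-IP and 2 in IgG-IP.

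Among the VEGF receptors, Flt1 binds VEGF tightly and limits its supply, and Kdr carries most of its growth signal. Flt1 (chromosome 5, 147561604 to 147726011) had 165 and 177 normalized counts in Flag-IP and 154 in IgG-IP. Kdr (chromosome 5, 75932827 to 75978458) had 34.5 and 46.5 normalized counts in Flag-IP and 34.9 in IgG-IP. The Kdr groups overlapped, since Flag-IP 1 lay just under IgG-IP, and the Flt1 libraries were close to each other. The log2 fold changes were 0.15 ± 0.25 for Flt1 and 0.22 ± 0.42 for Kdr (SE, edgeR adjusted p = 0.764 and 0.794). The counting intervals of the pooled folds, 0.917 to 1.35 for Flt1 and 0.782 to 1.78 for Kdr, both include 1.

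The angiopoietin receptors diverged in direction, with neither past the test. Tek, the Tie2 kinase (chromosome 4, 94739289 to 94874976), had 108 and 106 normalized counts in Flag-IP and 137 in IgG-IP. Tie1 (chromosome 4, 118471191 to 118490061), its partner, had 19.4 and 23.8 normalized counts in Flag-IP and 13.2 in IgG-IP. Both Flag-IP libraries were below IgG-IP for Tek and above it for Tie1, though Tie1 rested on 18 and 24 raw counts in Flag-IP and 14 in IgG-IP. The log2 fold changes were -0.35 ± 0.27 for Tek and 0.71 ± 0.63 for Tie1 (SE, edgeR adjusted p = 0.434 and 0.525). The difference between these genes was not tested.

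Cell junctions of the endothelium are held by Cdh5, the VE-cadherin, and Pecam1, the adhesion molecule CD31. Pecam1 (chromosome 11, 106654217 to 106750628) had 131 and 165 normalized counts in Flag-IP and 120 in IgG-IP. Cdh5 (chromosome 8, 104101625 to 104144511) had 35.5 and 39.6 normalized counts in Flag-IP and 29.2 in IgG-IP. In both genes the IgG-IP library was the lowest, and for Pecam1 the Flag-IP libraries were farther from each other than Flag-IP 1 was from IgG-IP. The log2 fold changes were 0.31 ± 0.26 for Pecam1 and 0.36 ± 0.44 for Cdh5 (SE, edgeR adjusted p = 0.491 and 0.663). An annotated antisense gene, Gm29682, overlaps Cdh5 outside its exons and was not analysed here.

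Vwf, Eng and Emcn encode surface or secreted glycoproteins, and their unadjusted p-values were under 0.05 without passing the adjusted threshold. Of the 17587 genes tested, 4340 had an unadjusted p under 0.05 by edgeR. Von Willebrand factor, Vwf (chromosome 6, 125546774 to 125686679), is stored in endothelial granules and catches platelets, and had 132 and 144 normalized counts in Flag-IP and 88.5 in IgG-IP. Endoglin, Eng (chromosome 2, 32646595 to 32682669), had 49.5 and 57.4 normalized counts in Flag-IP and 28.3 in IgG-IP. Endomucin, Emcn (chromosome 3, 137341067 to 137432185), had 64.6 and 60.4 normalized counts in Flag-IP and 96.1 in IgG-IP. In each of these genes the Flag-IP libraries stood together and apart from IgG-IP, above it for Vwf and Eng and below it for Emcn.

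The log2 fold changes were 0.64 ± 0.28 for Vwf, 0.92 ± 0.41 for Eng and -0.62 ± 0.31 for Emcn (SE, edgeR adjusted p = 0.116, 0.128 and 0.193). Vwf passed when genes under a mean of 50 counts were left out (edgeR adjusted p = 0.0205) and when a trend on gene span was removed (edgeR adjusted p = 0.0448). With that filter 774 of 4979 genes tested were called higher, and with the span trend removed 880 of 17587. With the GC trend removed, the log2 fold change of Vwf was 0.04 and its adjusted p by edgeR 0.972, the highest over the alternatives. Emcn was called lower under scaling to total counts (edgeR adjusted p = 0.00900), as was Tek (edgeR adjusted p = 0.0259), and their adjusted p-values reached 0.980 and 0.847 under other alternatives. An exon of Fpgs, on the other strand, shares 61 bases with an exon of Eng and had 14 and 20 counts in Flag-IP and 11 in IgG-IP, and the strand setting of the counting is unknown.

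No difference between the Flag-IP libraries was resolved in these genes. The fold of Flag-IP 1 over Flag-IP 2 had a 95% counting interval that included 1 in all 10 genes. It was 1.01 for Notch4 (0.704 to 1.44) and farthest from 1 for Kdr, at 0.740 (0.457 to 1.19). Pecam1 came nearest to excluding 1, at 0.794 (0.624 to 1.01), and the interval of Tie1 ran from 0.417 to 1.57. Intervals this wide do not show that the libraries were alike. Pooled over the Flag-IP libraries, the counting interval of the fold over IgG-IP excluded 1 for 6 of the 10 genes, among them Pecam1 by a narrow margin (1.01 to 1.55) and Tek (0.629 to 0.974). These intervals hold no spread between libraries, and 4 genes had an unadjusted p under 0.05 in the edgeR test, which does. Of all 17587 genes tested, 4340 had such a p. The share of all genes whose counting intervals include or exclude 1 is not given here, so these counts are not results about the group.

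Transcript GC content followed the fold change closely in these genes. Notch4 had the highest GC content, 61.2%, followed by Tie1 at 58.2%, Eng at 57.4% and Vwf at 56.5%. Tek at 47.1% and Emcn at 41.5% had the lowest, and were the 2 genes with both Flag-IP libraries below IgG-IP. Cdh5 (52.2%), Flt1 (50.5%), Pecam1 (49.8%) and Kdr (49.4%) lay between in GC content and in fold change. Across the 10 genes Spearman's rho between GC content and log2 fold change was 0.95 and Pearson's r was 0.96. Set against the log2 difference of Flag-IP 1 from Flag-IP 2, GC content had a rho of -0.21. The rho with the fold change was 0.63 over the 9084 protein-coding genes whose mean reached 20 counts. The points share the same 3 libraries and are not independent replicates, so these are descriptions.

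**Figure D2:**
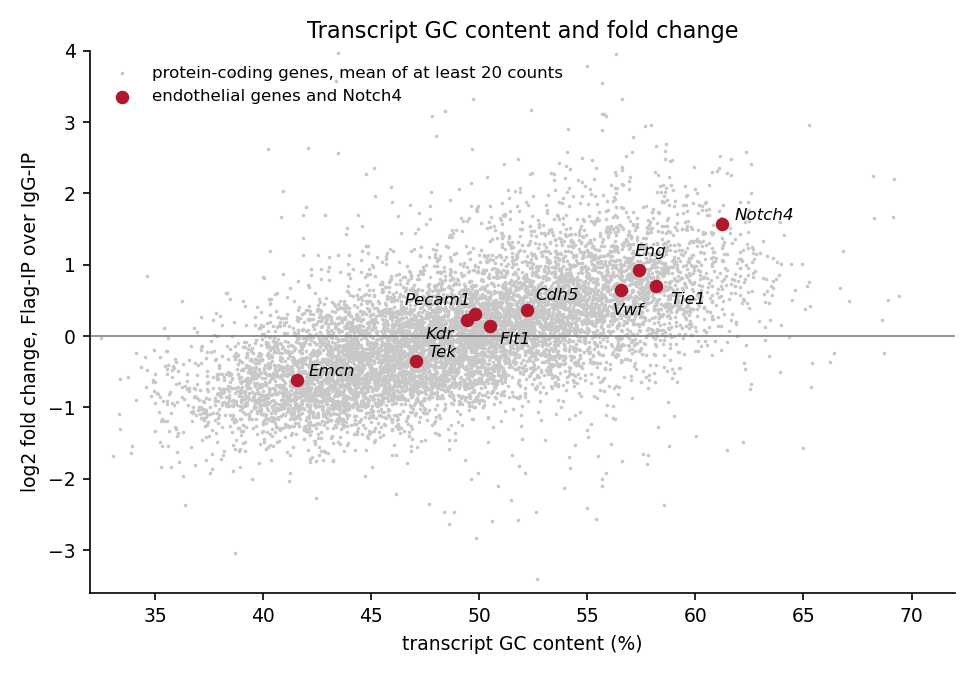
Transcript GC content (x axis, %) against the log2 fold change of Flag-IP over IgG-IP (y axis) for the 9084 protein-coding genes in grey, of which 8 lie outside the axes, and the 10 endothelial genes in red. The red points climb with GC content, Emcn at 41.5% being the lowest and Notch4 at 61.2% the highest.

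A smooth trend of fold change on GC content, fitted over the protein-coding genes, gave 0.84 at the GC content of Notch4, 0.66 at that of Eng and -0.59 at that of Emcn on the log2 scale. With this trend removed in the fit, the log2 fold change was 0.26 ± 0.41 for Eng, 0.01 ± 0.63 for Tie1 and 0.04 ± 0.27 for Vwf (SE). It was -0.17 ± 0.27 for Tek and -0.03 ± 0.31 for Emcn (SE). Notch4, at 0.73 ± 0.41 (SE), had the largest value left, and none of the 10 genes passed edgeR's test. What lies behind the relation was not tested.

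**Figure D3:**
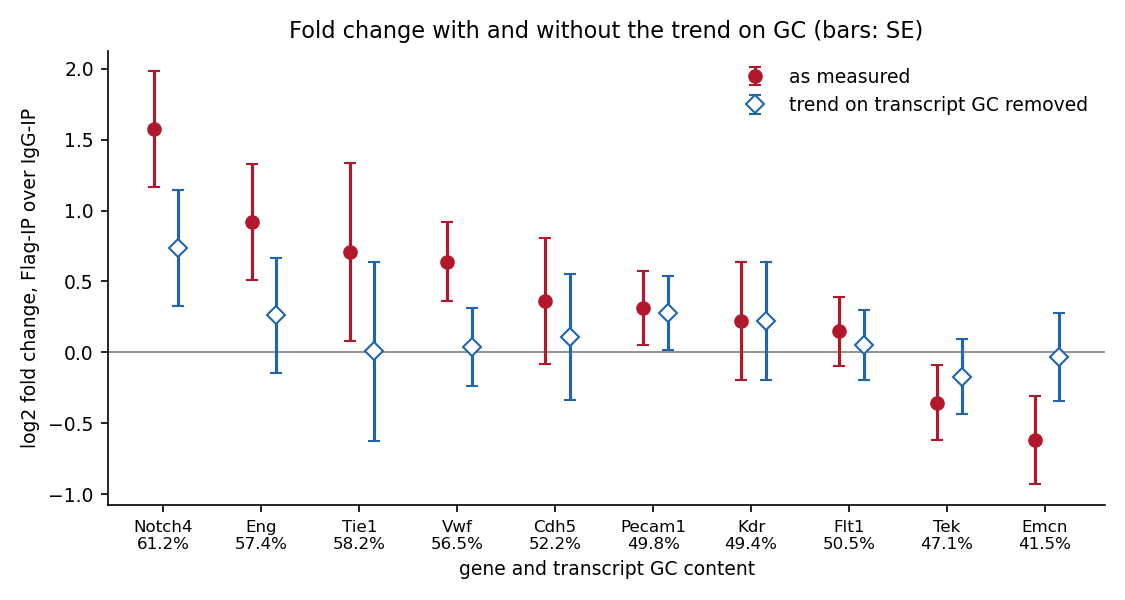
Log2 fold change of Flag-IP over IgG-IP (y axis, bars are SE) of each gene as measured, in red, and with the trend on transcript GC content removed, in blue. The GC content stands under each name, and Notch4 lies at 1.57 as measured and at 0.73 without the trend, while Tie1, Vwf and Emcn came to within 0.04 of 0.

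GGAC content also went with the fold change, less closely. Notch4 had the densest transcript, with 52 copies of GGAC at 7.89 per kb, and Emcn the sparsest, with 8 copies at 3.09 per kb. The other 8 genes had between 5.06 (Kdr) and 6.05 (Pecam1) per kb, and the median of the 10 was 5.44 per kb against 4.07 over all genes tested. Spearman's rho with the log2 fold change was 0.62 across the 10 genes and 0.42 across the 9084 protein-coding genes. GGAC is itself rich in G and C, so its density and the GC content cannot be told apart here.

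The raw counts of these genes followed the length of the gene on the chromosome, introns included, more than the length of the mature transcript. Flt1, the longest at 164 kb of span, had the most counts in the IgG-IP library (164), and Tie1, the shortest at 18.9 kb, the fewest (14). Spearman's rho between count and gene span across the 10 genes was 0.82 and 0.81 in Flag-IP 1 and Flag-IP 2 and 0.93 in IgG-IP. Between count and transcript length it was 0.38 and 0.32 in Flag-IP and 0.07 in IgG-IP. Over 21226 protein-coding genes the values with span were 0.86 and 0.88 in Flag-IP and 0.90 in IgG-IP, and those with transcript length 0.51 and 0.52 in Flag-IP and 0.50 in IgG-IP. The spans are those of GENCODE M21, and which part of a gene each count came from is not in the counts.

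Per 10 kb of gene span, the endothelial genes sat close to other genes in the IgG-IP library. They had between 6.33 (Vwf) and 12.4 (Pecam1) normalized counts per 10 kb there, a 1.96-fold range. Over 13814 protein-coding genes with a span of at least 10 kb the median was 8.11 in IgG-IP, and between the 10th and the 90th percentile it ran over 3.71 to 13.3. In the Flag-IP libraries the medians were 7.94 and 8.07. Notch4 stood at 28.0 and 27.8 normalized counts per 10 kb in Flag-IP, above 96.2% and 96.9% of those genes, against 9.33 in IgG-IP, above 65.0% of them. Eng had 13.7 and 15.9 in Flag-IP against 7.83 in IgG-IP, and Pecam1 had 13.6 and 17.2 against 12.4. Emcn, with 7.09 and 6.63 in Flag-IP against 10.5, and Tek, with 7.94 and 7.81 against 10.1, were below the median in both Flag-IP libraries and above it in IgG-IP.

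**Figure D4:**
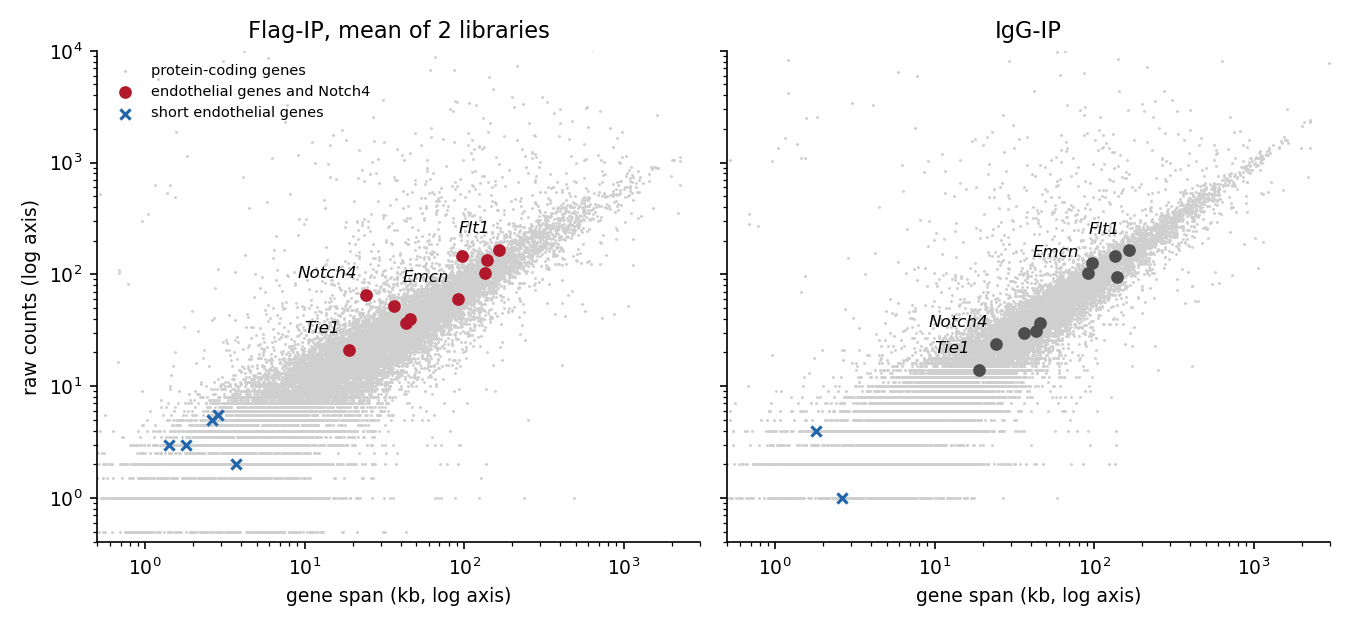
Gene span in kb (x axis, log) against raw counts (y axis, log) in Flag-IP, as the mean of 2 libraries, at left and in IgG-IP at right, with protein-coding genes in grey, the 10 endothelial genes as filled points and 5 short endothelial genes as crosses (genes at 0 or past the axes are not drawn). Counts climb with span in both panels, and Notch4 sits above the band in Flag-IP and inside it in IgG-IP.

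Levels per kb of exon, the usual scale for mature RNA, ordered the genes otherwise. Pecam1 and Tek were the highest in Flag-IP, at 21.1 and 26.6 normalized counts per kb of exon for Pecam1 and 22.9 and 22.5 for Tek, against 19.2 and 29.0 in IgG-IP. Kdr (3.82 and 5.15 in Flag-IP, 3.86 in IgG-IP) and Tie1 (3.94 and 4.83 in Flag-IP, 2.68 in IgG-IP) were the lowest. Emcn had 11.9 and 11.2 per kb of exon in Flag-IP against 17.8 in IgG-IP, Eng 12.2 and 14.2 against 6.98, and Flt1 12.2 and 13.1 against 11.4, and the Flag-IP values of Eng and Flt1 overlapped. Short endothelial genes had hardly any counts. Cldn5, a tight junction gene of endothelium with a span of 1.42 kb, had 4 and 2 counts in Flag-IP and 0 in IgG-IP, and Thbd, the thrombomodulin gene of 3.72 kb, had 0 and 4 in Flag-IP and 0 in IgG-IP. Klf2 had 4 and 6 counts in Flag-IP and 1 in IgG-IP, Sox18 had 4 and 2 against 4, and Gpihbp1, which brings lipoprotein lipase into the capillary of fat, had 4 and 7 against 0. Among 41 other endothelial genes, the 30 with enough counts to be tested had a median span of 19.3 kb and the 11 without 4.57 kb.

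Genes of the same pathways, taken from lists of 127 genes in the table besides the 10, gave 6 higher and 5 lower among 98 tested, and their median log2 fold change was 0.31. The shares are close to the 5.58% and 5.77% over all genes. The transcript GC of the higher genes had a median of 57.2% (52.8% to 61.4%), and that of the lower genes 42.3% (39.0% to 46.8%). These groups did not overlap in GC content. The 87 genes not called, with a median of 51.5% (41.0% to 63.6%), reached into both ranges. With the GC trend removed, 3 of these 11 calls were still made by edgeR, Lfng (adjusted p = 0.0201) and Tal1 (adjusted p = 0.0349) as higher and Tjp1 (adjusted p = 0.00256) as lower. The other 8, Notch1, Psen2, Shb, Stab1, Angpt1, Vegfc, F8 and Mmrn1, had adjusted p-values between 0.137 (Vegfc) and 0.997 (Shb) in that fit. With scaling to total counts 7 of the 11 were still called, and Notch1, Psen2, Shb and Stab1 were not. Over all protein-coding genes the GC medians were 55.7% for those called higher and 43.5% for those called lower.

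Of the ligands of these receptors, 2 of 8 were called lower, against 5.77% of all genes tested. No list was tested as a set. Angpt1, the activating ligand of Tek, had 95 and 169 counts in Flag-IP and 265 in IgG-IP (log2 fold change -0.88 ± 0.23, SE, edgeR adjusted p = 0.00400). Vegfc, which acts on lymphatic vessels through Flt4, had 39 and 58 counts in Flag-IP and 118 in IgG-IP (-1.15 ± 0.31, SE, edgeR adjusted p = 0.00523). For both the Flag-IP libraries lay apart from each other but both under IgG-IP. Among the partners of the receptors 1 of 9 was higher, against 5.58% of all genes tested. This was the adaptor gene Shb, with 136 and 150 counts in Flag-IP and 87 in IgG-IP. Nrp1, a VEGF co-receptor, had 114 and 126 counts in Flag-IP and 125 in IgG-IP and did not pass.

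In the Notch pathway 3 of 23 tested genes were called higher by edgeR, against 5.58% of all genes tested. The median log2 fold change of the list was 0.47. None was called lower, with 1 lower at an unadjusted p under 0.05, and DESeq2 called 0 of the 4 with an adjusted p. Notch1 had 48 and 63 counts in Flag-IP and 18 in IgG-IP (1.74 ± 0.45, SE, edgeR adjusted p = 0.00267). Lfng, a glycosyltransferase that tunes which ligands Notch receptors answer, had 20 and 26 counts in Flag-IP and 1 in IgG-IP. Its pooled fold was 25.2, with a 95% counting interval of 4.30 to 1016. Psen2, a catalytic subunit of the protease that frees the Notch fragment, had 56 and 49 counts in Flag-IP and 23 in IgG-IP. The other Notch receptors did not pass, with Notch2 at 116 and 102 counts in Flag-IP and 131 in IgG-IP and Notch3 at 114 and 132 against 107. Their GC contents were 57.1% for Notch1, 53.6% for Notch2 and 59.6% for Notch3. Notch3, with a GC content near that of Notch4, had a log2 fold change of 0.33.

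The endoglin pathway had 0 of 12 genes past edgeR's adjusted threshold and 1 at an unadjusted p under 0.05, and DESeq2 called 0 of the 2 with an adjusted p. Its most counted members were Smad2 (448 and 449 counts in Flag-IP, 386 in IgG-IP) and the co-receptor gene Tgfbr3 (190 and 239 in Flag-IP, 231 in IgG-IP). Of 10 junction partners, Tjp1, the ZO-1 scaffold gene, was lower with 31 and 39 counts in Flag-IP and 112 in IgG-IP. Ctnna1, which ties cadherins to actin, had 65 and 96 counts in Flag-IP and 140 in IgG-IP and did not pass. Of 7 partners of von Willebrand factor, F8, the clotting factor it carries, was lower with 66 and 74 counts in Flag-IP and 152 in IgG-IP, and Myrip, an adaptor of secretory granules, had 747 and 750 in Flag-IP and 607 in IgG-IP without passing. Of 30 other endothelial genes, Tal1 and Stab1 were higher and Mmrn1 lower. Over all genes tested 5.58% were called higher and 5.77% lower, the shares to set beside each of these lists. Tal1, a transcription factor gene, had 14 and 28 counts in Flag-IP and 2 in IgG-IP, a pooled fold of 11.5 with a 95% counting interval of 2.99 to 98.1. The scavenger receptor gene Stab1 had 34 and 53 counts in Flag-IP and 18 in IgG-IP, and Mmrn1, for a protein of endothelial and platelet granules, had 28 and 25 in Flag-IP and 69 in IgG-IP.

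**Figure D5:**
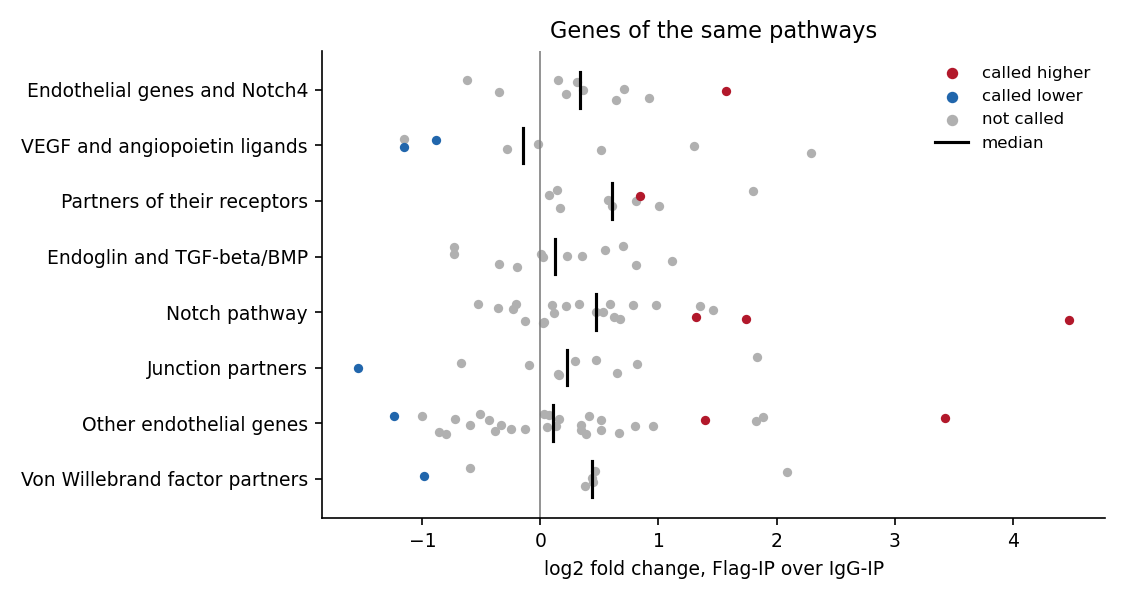
Log2 fold change of Flag-IP over IgG-IP (x axis) of each tested gene in the endothelial set and in 7 lists of related genes, with called genes in color and the median of each list as a bar. The medians lie between -0.15 for the ligands and 0.61 for the partners of their receptors.

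Markers of the other cells in fat were measured beside the endothelial genes. Of 11 tested white adipocyte markers 3 were higher, against 5.58% of all genes tested. They were the glycerol channel gene Aqp7 and the lipid droplet coat genes Plin4 and Plin1. Aqp7 had 1932 and 1631 counts in Flag-IP and 196 in IgG-IP, Plin4 30 and 34 against 4, and Plin1 34 and 59 against 12. Cidec (117 and 93 against 152) and Pparg (68 and 117 against 148) were lower in both Flag-IP libraries and did not pass. Both Flag-IP libraries lay above IgG-IP for 7 of the 11 markers and below it for 2, against 40.5% and 39% of all genes tested. The summed level of the list was 2532 and 2015 normalized counts in Flag-IP and 554 in IgG-IP. Without Aqp7 the summed level of the list was 451 and 400 normalized counts in Flag-IP and 369 in IgG-IP. Of 9 pericyte and smooth muscle markers Des was higher, against 5.58% of all genes tested. Des had 18 and 28 counts in Flag-IP and 4 in IgG-IP. The summed level of this list was 401 and 396 in Flag-IP and 273 in IgG-IP. Myh11 (99 and 106 counts in Flag-IP, 79 in IgG-IP) and Abcc9 (85 and 107 against 83) did not pass. Of 6 macrophage and leukocyte markers Ptprc was lower, against 5.77% of all genes tested. Ptprc had 168 and 211 counts in Flag-IP and 365 in IgG-IP. Emr1, at 76 and 68 in Flag-IP and 111 in IgG-IP, did not pass. The summed level of that list was 387 and 384 in Flag-IP and 550 in IgG-IP. None of 7 fibroblast markers passed edgeR's adjusted threshold and 1 had an unadjusted p under 0.05, while DESeq2 gave none of them an adjusted p (summed level 447 and 338 normalized counts in Flag-IP, 364 in IgG-IP). Their most counted genes were Col3a1 (100 and 90 counts in Flag-IP, 92 in IgG-IP) and Dpp4 (63 and 63 against 86). Among platelet markers, Pf4 and Ppbp had 0 counts in every library, and Itga2b (13 and 19 in Flag-IP, 4 in IgG-IP) and Gp6 (12 and 21 against 41) did not pass. In a bulk lysate the number of endothelial cells and the RNA per cell cannot be told apart. The part of the cell mix in the differences was not tested.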

How the data were processed

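The authors deposited raw read counts per Ensembl gene for 3 libraries, with no normalization. Per the submitters' processing notes, CASAVA 1.7, Bowtie 0.12.2 and the build mm8 were used. How reads were counted per gene, on which annotation and with which strand setting, is not stated in these sources. Each column carries a sample number that the labels repeat, which ties it to its library. A deposited list of lipid genes holds none of the genes described and was not used.

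Positions, spans, exon lengths and transcripts come from GENCODE M21 on GRCm38, matched by identifier (37607 of 39179 genes), and none are in mm8. The transcript with the longest coding sequence was taken for each gene. Genes were kept by edgeR's filterByExpr (minimum count 10) and tested with edgeR 4.0.16 in R 4.3.3 by the quasi-likelihood F test between Flag-IP and IgG-IP, adjusted by Benjamini-Hochberg over 17587 genes and a threshold of 0.05. The TMM factor was 0.840 in Flag-IP 1, 0.936 in Flag-IP 2 and 1.27 for IgG. Normalized counts are counts over the effective library size, times the mean of the effective sizes. The fit has 1 residual degree of freedom, from the 2 Flag-IP libraries, and assumes that the lone IgG-IP library varied as they did. Prior degrees of freedom were infinite for every gene, so the spread in the F test is shared between genes. The common dispersion of 0.0359 set the spread in the likelihood ratio test among the alternatives, not in the F test. The SE of Flt1 was 0.245 in the F test and 0.363 in that alternative, and that of Tie1 0.628 and 0.547. The standard error is the log2 fold change divided by the square root of F. Log2 ratios of single libraries use a prior count of 2. Counting intervals are exact Clopper-Pearson at 95% and cover counting error only, since reads without molecular identifiers are not independent molecules. On simulated counts for 17587 genes, 180 of 200 genes changed 4-fold were recovered and 14 others were called. Every simulated gene had the same dispersion, with no trend on GC content and no shift in composition between the groups. How the fit does under such a trend or shift, or for changes under 4-fold, was not tested. The changed genes were drawn only from well-counted ones, averaging 50 or more. The recovery of weaker genes, among them Eng, Cdh5, Kdr and Tie1, was therefore not tested.

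Alternatives were scaling by upper quartile, by RLE or by total counts, no filter or a filter at a mean of 50 counts, DESeq2 1.42.0, a common-dispersion likelihood ratio test, lowess trends (span 0.3, from protein-coding genes averaging 20 or more counts) on GC content or gene span as offsets, and leaving out each Flag-IP library. The 10 genes and all lists were chosen with earlier results of these data known. All 10 are named. From other lists, called genes are named, up to 4 by size of fold change, and where fewer than 2 were called the 2 with the highest mean count. Notch2, Notch3, Cldn5, Thbd, Klf2, Sox18, Gpihbp1, Pf4, Ppbp, Cidec and Pparg, and the comparisons with gene span and GGAC, were chosen after values were seen.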

Additional observations from a re-analysis of the deposited data

How the results depend on the processing

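Scaling to total counts gave 342 genes higher and 3008 lower, 0 of the 10 endothelial genes higher and 2 lower (Tek and Emcn), 2 pathway genes higher and 9 lower, and a median log2 fold change of -0.17 for the 10 genes. Pecam1 (-0.20), Cdh5 (-0.15), Kdr (-0.29) and Flt1 (-0.37) changed sign there, where the median of all genes shifted by -0.52. With the GC trend removed 462 genes were higher and 409 lower, 0 of the 10 and 3 pathway genes were higher, 2 pathway genes were lower, and the median was 0.081. With the span trend removed 880 of 17587 genes tested were higher and 704 lower. Of the 10 genes 2 (Notch4 and Vwf) were higher there, and 3 of 98 pathway genes were lower. With genes under a mean of 50 counts removed, 774 of 4979 genes tested were higher and 784 lower. That filter left 6 of the 10 genes, of which 2 (the same genes) were higher. It left 34 pathway genes, of which 3 were higher. Without a filter 743 of 31043 genes tested and 3 of 127 pathway genes were higher. With the likelihood ratio test 751 of 17587 genes tested and 3 of 98 pathway genes were lower. DESeq2 called 131 genes higher and 145 lower and left 15684 of 17587 genes without an adjusted p. Among these were 8 of the 10 genes, Notch4 included, so DESeq2 calls of single genes are not counted. The cause of these changes was not tested. Notch4 was called in 6 of 8 alternatives that gave it an adjusted p, between 0.00160 and 0.389. Without Flag-IP 1 the median was 0.44 and without Flag-IP 2 it was 0.20, with no test, since no residual degrees of freedom remain. No paired analysis was possible because the groups share only 1 replicate number. The median tested gene had 24 to 26 counts, so differences in weakly counted genes such as Tie1 were not detectable at this depth unless large. A missed threshold does not show that Flag-IP and IgG-IP were alike.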
